A study of Mus musculus with 27 samples.

Results

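The cell cycle and DNA replication genes are 39 mouse genes named individually for their role in cell division, and every one was found among the 52550 genes of the count table. Their levels were followed in 27 libraries of whole-tissue polyadenylated RNA from the ileum, cecum and colon of male C57BL/6 mice on control feed or feed with arsenic. The mice were 6 weeks old, were acclimatised for 7 days, and were then kept for 60 days on standard feed or on the same feed with 30 ug of total arsenic per g, 10 mice per diet. The arsenic was given as sodium arsenite (72.7%), sodium arsenate (7.3%), sodium MMA (1.0%) and sodium DMA (19.0%). No knockout, transgene or other treatment was part of either group. There were 4 control and 5 arsenic libraries from the ileum, 4 and 5 from the cecum, and 5 and 4 from the colon. The libraries carry numbers, but the labels do not say that libraries with the same number came from the same mouse, or that each came from a separate mouse, so the p-values measure the spread between these libraries.

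The intestinal epithelium is renewed by dividing cells in the crypts, and these genes mark that division. Cyclin E with its kinase and the transcription factor E2F1 drive entry into DNA synthesis. The MCM proteins form the helicase ring that is loaded at replication origins, PCNA clamps the polymerase to DNA, and ribonucleotide reductase, thymidylate synthase and thymidine kinase supply the nucleotides. The B-type cyclins, CDK1, the Aurora kinases and PLK1 then carry the cell into mitosis, and the anaphase-promoting complex, activated by CDC20 and supplied with ubiquitin by UBE2C, ends it by destroying the cyclins. Other dividing cells, such as activated lymphocytes, use the same genes. In whole tissue, fewer dividing cells and less RNA per dividing cell cannot be told apart.

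The promoters of these genes share short sequence elements, and 5 are shown because their genes carry the results below. RefSeq promoter sequences (build GRCm38.p6, 300 bases from 250 before to 50 after the start) were matched for 31 of the 39 genes. No entry was matched for Aurkb, Ccna2, Ccne2, Foxm1, Gins2, Kif20a, Mcm4 and Tpx2. The 150 bases before the start are given 5′ to 3′ on the strand of the gene, at chr4:118437344-118437493 (minus strand) for Cdc20, chr9:70421555-70421704 (minus) for Ccnb2, chr7:122159285-122159434 (plus) for Plk1, chr8:75109359-75109508 (plus) for Mcm5 and chr12:24708104-24708253 (plus) for Rrm2. Capitals mark matches, on either strand, to the CCAAT box (CCAAT), the cell cycle homology region known as CHR (TTTGAA) and an E2F element (TTTNNCGC).
Cdc20: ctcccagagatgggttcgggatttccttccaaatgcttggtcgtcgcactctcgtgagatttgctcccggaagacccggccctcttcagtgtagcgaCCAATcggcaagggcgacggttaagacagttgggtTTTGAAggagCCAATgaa
Ccnb2: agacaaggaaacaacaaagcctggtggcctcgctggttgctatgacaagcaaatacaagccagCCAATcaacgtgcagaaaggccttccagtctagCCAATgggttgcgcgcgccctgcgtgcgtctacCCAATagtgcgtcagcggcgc
Plk1: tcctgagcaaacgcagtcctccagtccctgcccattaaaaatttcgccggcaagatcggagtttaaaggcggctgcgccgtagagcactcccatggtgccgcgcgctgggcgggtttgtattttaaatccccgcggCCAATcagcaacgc
Mcm5: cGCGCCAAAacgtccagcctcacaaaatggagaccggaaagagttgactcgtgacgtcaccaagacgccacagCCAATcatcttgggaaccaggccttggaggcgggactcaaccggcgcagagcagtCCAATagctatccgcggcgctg
Rrm2: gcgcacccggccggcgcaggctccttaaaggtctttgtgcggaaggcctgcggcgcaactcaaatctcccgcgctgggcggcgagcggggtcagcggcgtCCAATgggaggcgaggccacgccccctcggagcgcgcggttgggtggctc
Over the full 300 bases, 24 of the 31 promoters (77.4%) held a CCAAT box, against 37.4% of 32851 mouse promoters of the same length. The CHR letters were found in 12 of 17 promoters of mitotic genes (70.6%) and in 2 of 14 promoters of the replication and G1/S genes (14.3%), against 17.9% of all promoters. The E2F letters showed the other distribution, with 6 of 14 replication and G1/S promoters (42.9%), 1 of 17 mitotic promoters (Cdk1, 5.88%) and 5.17% of all promoters. None of these elements contains another, and a match is a description of the letters, not of binding.

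All 39 genes passed the filter on low counts in every comparison. Library totals were 15717600 to 18208518 counts. Levels are CPM, counts relative to the TMM-scaled library total, and levels of different genes are compared only per kilobase of merged exon (GENCODE). In control ileum Pcna was the most abundant at 40.6 CPM per kb, followed by Top2a at 13.3, and Cenpf was the lowest at 1.23. Some libraries stood apart from the others of their region. Fabp6, an ileal bile acid carrier, was at 6.13 and 1.33 CPM in ileum arsenic 14 and 15 and at 218 to 4268 in the other ileum libraries. Hoxb13, a distal colon marker, was at 0 in colon control 1 and at 40.1 to 239 CPM in the other colon libraries. For the 39 genes, the main counts within a region or within a feed that rest on these libraries are given with and without them. Genes high in the ileum also stood out elsewhere. Lyz1, a Paneth cell gene, was at 92.7 CPM in colon control 4 and 2.67 to 7.47 in the other control colon libraries. Fabp6 was at 69.9 CPM in cecum arsenic 14 and 0.205 to 20.9 in the other arsenic cecum libraries. Colon control 4 and cecum arsenic 14 were left out singly, as every library was.

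The clearest pattern was by region: the colon had the lowest level of the division genes. The mean log2 CPM over the 39 genes was 4.30 ± 0.38 (SD, n = 4) in control ileum, 4.29 ± 0.17 (n = 4) in control cecum and 3.57 ± 0.13 (n = 5) in control colon. On arsenic feed it was 4.43 ± 0.37 (n = 5), 4.30 ± 0.10 (n = 5) and 3.50 ± 0.14 (n = 4). The highest colon library, colon control 5 at 3.79, lay below every cecum library and above 1 ileum library, ileum control 1 at 3.75. By group mean, 38 of the 39 genes were lowest in the colon on either feed, and the exception was Plk1.

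**Figure D1:**
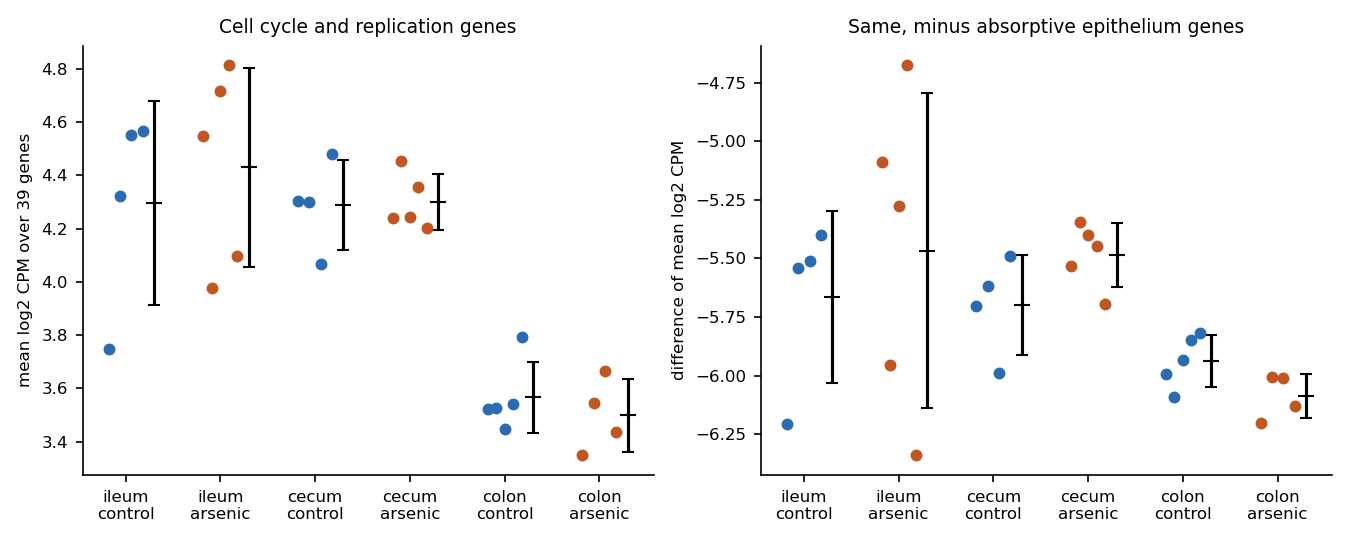
Each point is 1 library, and the black bar beside each group is its mean with 1 SD; the left axis is the mean log2 CPM over the 39 genes and the right axis is that value minus the mean log2 CPM of 14 absorptive epithelium genes. The colon groups average 3.57 and 3.50 on the left axis, against 4.29 to 4.43 in the other groups, and ileum control 1 is the low ileum point at 3.75.

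Compared with the cecum, 31 of the 39 genes were lower in the colon on control feed and 34 on arsenic feed (edgeR quasi-likelihood test, adjusted p under 0.05). Over all genes tested, 25.3% and 16.2% were called lower in the same comparisons. The median log2 difference of the 39 genes was -0.75 on control and -0.71 on arsenic feed, against -0.05 and 0.02 over all genes. In 30 genes on control feed and 36 on arsenic feed every colon library lay below every cecum library, against 20.7% and 24.1% of all genes.

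Compared with the ileum, 36 genes were lower in the colon on control feed and 35 on arsenic feed, where 24.5% and 26.3% of all genes were called lower. The medians were -0.78 and -0.95, against 0.02 and 0.07 over all genes. In this comparison 17 genes on control feed and 25 on arsenic feed had every colon library below every ileum library (18.2% and 22.7% of all genes). The same colon libraries enter the comparisons with ileum and cecum, and 28 of the 39 genes were lower in the colon in all 4 comparisons. The other 11 were Ccne1, Ccne2, Cdc6, Cenpe, Cenpf, E2f1, Foxm1, Gins2, Kif20a, Nusap1 and Plk1. Among the 28, the control calls of Kif23 and Rrm1 against the cecum were kept in 7 and 14 of 20 alternative settings. The arsenic-feed call of Cdc20 against the cecum was kept in 15 of 21. With ileum arsenic 14 and 15 left out, 36 genes were lower in the colon than in the ileum on arsenic feed, and without colon control 1 the counts on control feed were 35 against ileum and 29 against cecum.

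**Figure D2:**
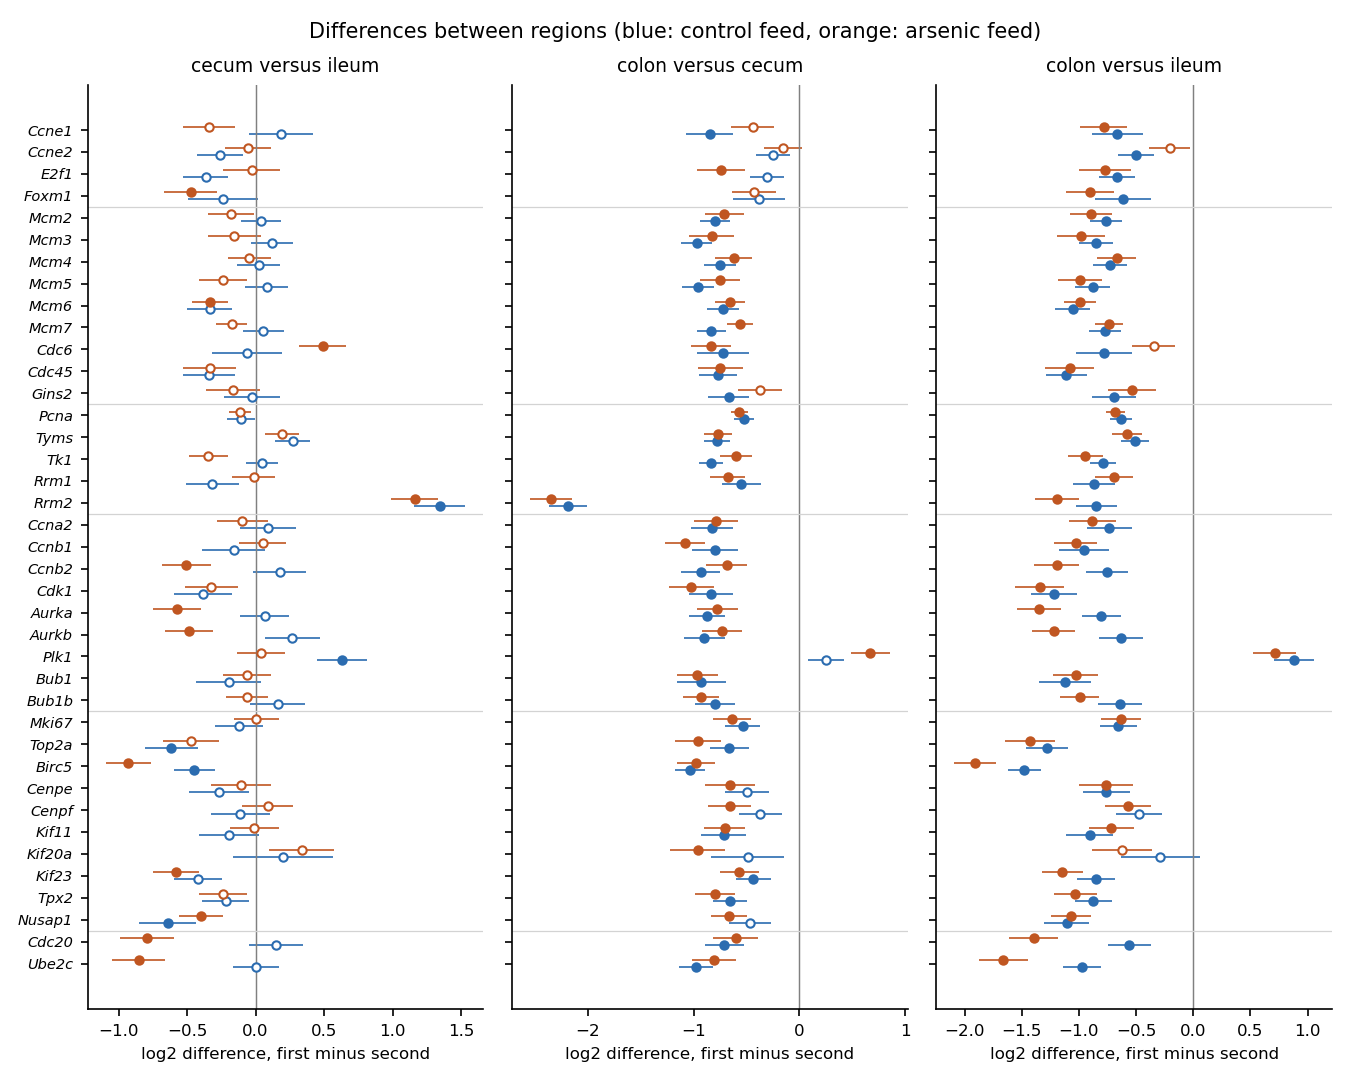
Log2 differences (x axis) with SE for each gene (y axis, by role) between pairs of regions, in blue for control and orange for arsenic feed; filled points passed an adjusted p of 0.05 in edgeR. In the colon panels all points lie to the left of 0 except Plk1, and in the cecum against ileum panel Rrm2 lies at 1.34 and 1.16.

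Of the 4 genes of G1/S entry and transcription factors, 1 was called lower against the cecum on each feed. Against the ileum 4 were called lower on control and 3 on arsenic feed. The control call of Foxm1, a transcription factor, against the ileum was kept in 8 of 20 alternative settings. Ccne2, a cyclin E, differed from the cecum by -0.25 (SE 0.16) and -0.15 (SE 0.18) and passed in neither feed. Ccne1 was lower in control colon than in control cecum by -0.85 (SE 0.22, adjusted p = 0.00648, edgeR), and the difference on arsenic feed was -0.44 (SE 0.21, adjusted p = 0.105). E2f1 was lower in the colon than in the cecum on arsenic feed (-0.74, SE 0.23, adjusted p = 0.0176, edgeR), and the difference on control feed was -0.30 (SE 0.16). Whether diet changes these differences was tested over the 3 regions together, and none of these genes was called there.

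The origin and helicase genes were lower in the colon throughout. All 9 passed against the cecum and against the ileum on control feed, and 8 of 9 passed each on arsenic feed, with role medians from -0.71 to -0.89. The control call of Cdc6 against the cecum was kept in 13 of 20 alternative settings. The arsenic-feed call of Gins2 against the ileum was kept in 14 of 21. The MCM genes encode the 6 different subunits of 1 ring, and their differences from control cecum lay close together, from -0.72 (Mcm6) to -0.97 (Mcm3). Mcm5 was at 21.2 to 30.5 CPM in the 4 control cecum libraries and at 12.4 to 15.5 CPM in the 5 control colon libraries. The ranges did not overlap, and the difference was -0.96 (SE 0.15, adjusted p = 0.000188, edgeR). Gins2, part of the active helicase, was the arsenic-feed exception against the cecum (-0.37, SE 0.21), and Cdc6, a loader of the helicase, was the exception against the ileum (-0.35, SE 0.19).

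All 5 genes of the replication fork and nucleotide supply were lower in the colon in all 4 comparisons. Rrm2, the small regulatory subunit of ribonucleotide reductase, followed a course of its own. It was at 38.7, 39.5, 30.5 and 40.7 CPM in cecum controls 1, 2, 4 and 5. In control ileum it was at 9.55, 14.8, 16.5 and 17.6 CPM, and in control colon at 7.72, 8.88, 6.00, 7.66 and 10.4 CPM. Every control cecum library was above every other control library. The arsenic groups had the same order, with 30.3 to 43.8 CPM in cecum, 11.2 to 21.7 CPM in ileum and 5.98 to 7.48 CPM in colon. The cecum exceeded the ileum by 1.34 (SE 0.19, adjusted p = 3.51e-05) on control and 1.16 (SE 0.17, adjusted p = 4.61e-05) on arsenic feed, by edgeR. The colon was below the cecum by log2 differences of -2.19 (SE 0.18) and -2.35 (SE 0.20). Rrm1, the large subunit of the same enzyme, had no such excess in the cecum: its differences from the ileum were -0.32 (SE 0.19) and -0.01 (SE 0.15), and neither passed. The difference between the Rrm1 and Rrm2 patterns was not tested.

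Of the 9 mitotic cyclins and kinases, 8 were lower in the colon in every comparison, and Plk1 was not. Cdk1, the mitotic kinase, was lower in control colon than in control ileum by -1.22 (SE 0.20, adjusted p = 0.000197, edgeR), and Bub1, a spindle checkpoint kinase, by -1.12 (SE 0.23). Aurka and Aurkb, the Aurora kinases, differed from the ileum by -0.81 (SE 0.17) and -0.63 (SE 0.19) on control feed and by -1.35 (SE 0.19) and -1.22 (SE 0.19) on arsenic feed.

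Plk1, a kinase of mitotic entry, was higher in the colon than in the ileum. It was at 12.8, 18.6, 22.1 and 18.1 CPM in ileum controls 1, 2, 3 and 5 and at 23.4, 30.7, 36.6, 38.0 and 36.5 CPM in colon controls 1 to 5. The lowest colon library was above the highest ileum library. The difference was 0.88 (SE 0.17, adjusted p = 0.000711, edgeR) on control and 0.71 (SE 0.18, adjusted p = 0.00411) on arsenic feed, where 27.7% and 32.8% of all genes were called higher. On arsenic feed the colon also exceeded the cecum by 0.67 (SE 0.18, adjusted p = 0.00977, where 22.5% of all genes were called higher), a call that was lost without cecum arsenic 11 or without cecum arsenic 15. On control feed that difference was 0.25 (SE 0.17), called only without colon control 1. Plk1 lies on chromosome 7 at 122159439 to 122169873 on the plus strand (GRCm38, GENCODE). Of 4 neighbouring genes examined, a pair on the minus strand had the same order of regions. Ern2, a stress sensor of mucus-secreting cells, is transcribed toward Plk1, and its transcribed end lies 19 bases past the end of Plk1. Gm44985, an unclassified transcript of 1016 bases, overlaps the exons of Plk1. Ern2 was higher in the colon than in the ileum by 1.96 (SE 0.31) on control and 2.51 (SE 0.19) on arsenic feed, and Gm44985 by 1.24 (SE 0.18) and 1.82 (SE 0.18). The other pair did not: Dctn5 averaged 55.2, 71.0 and 50.6 CPM in control ileum, cecum and colon, and Gm15489, at 0.284, 0.403 and 0.356 CPM, was also highest in the cecum but too low to be tested. The library kit named in the labels does not mark strand as described, and the strand setting of the counting is not given, so reads of Plk1 and of a transcript on the other strand cannot be told apart. The neighbours were chosen after the values of Plk1 were seen, and their part in the result was not tested.

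**Figure D3:**
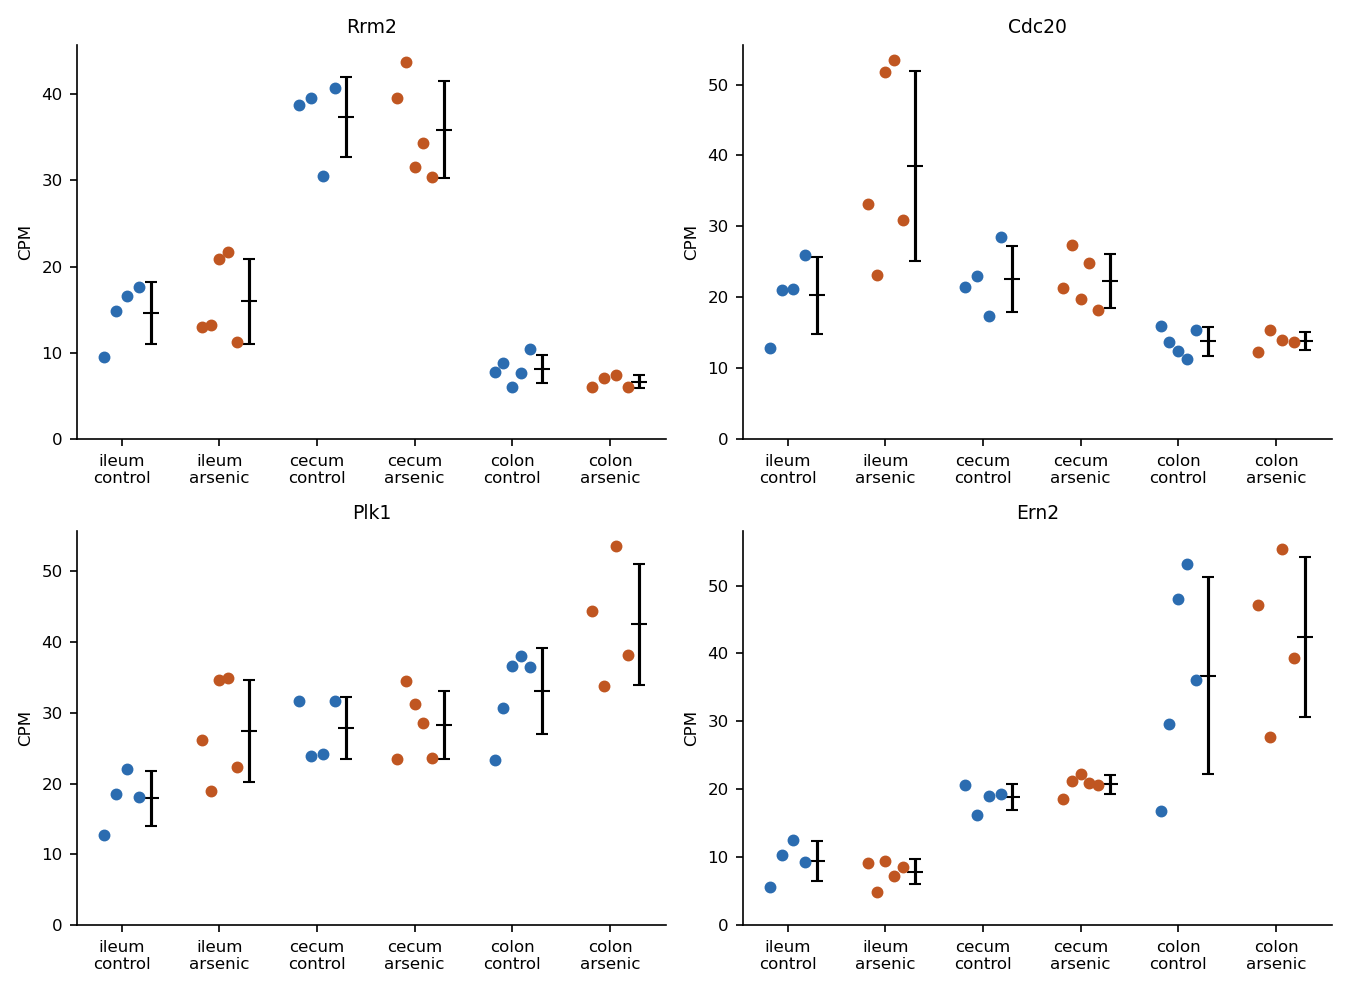
CPM (y axis, from 0) of Rrm2, Cdc20, Plk1 and the Plk1 neighbour Ern2 in every library, with the mean and 1 SD in black. Rrm2 is above 30 CPM only in the cecum, Cdc20 exceeds 30 CPM only in arsenic ileum libraries, and Plk1 and Ern2 have their highest group means in the colon.

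The chromosome, kinetochore and spindle genes were lower in the colon with 6 of 10 called on control and 10 of 10 on arsenic feed against the cecum, and 8 and 9 of 10 against the ileum. Birc5, the survivin subunit of the chromosomal passenger complex, had the largest fall from ileum to colon of the 39 genes. It was at 26.0, 29.7, 29.5 and 33.4 CPM in control ileum, 18.7 to 27.3 CPM in control cecum and 9.11 to 13.4 CPM in control colon. No control colon library reached the lowest ileum or cecum library. The colon differed from the ileum by -1.48 (SE 0.14, adjusted p = 1.23e-06) on control and -1.91 (SE 0.18, adjusted p = 6.58e-07) on arsenic feed, by edgeR. Top2a, the topoisomerase that untangles chromosomes, fell from 120 ± 35 CPM (SD, n = 4) in control ileum to 49.5 ± 8.8 CPM (n = 5) in control colon, and Mki67, the Ki-67 protein gene, from 114 ± 31 to 72.6 ± 8.9 CPM. Kif20a, a kinesin of cytokinesis, passed in 1 of the 4 colon comparisons, against the cecum on arsenic feed (-0.96, SE 0.26, adjusted p = 0.00922).

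The anaphase-promoting complex partners Cdc20 and Ube2c were lower in the colon in all 4 comparisons. Against the ileum, the differences were -0.56 (SE 0.19) and -0.97 (SE 0.16) on control feed and -1.40 (SE 0.21) and -1.66 (SE 0.21) on arsenic feed.

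Ileum and cecum differed less. On control feed 18 of the 39 genes had a positive and 21 a negative difference in the cecum, with a median of -0.06. On arsenic feed 8 were positive and 31 negative, with a median of -0.17 against -0.06 over all genes. By edgeR, on control feed 2 genes were higher in the cecum (Rrm2 and Plk1) and 3 lower (Birc5, Nusap1 and Top2a), where 28.4% and 26.5% of all genes were called. With upper-quartile scaling the same split was 2 and 9. On arsenic feed 2 were higher (Rrm2 and Cdc6) and 10 lower, against 25.0% and 27.1%. Birc5 and Nusap1, a spindle-binding protein, were lower in the cecum on both feeds. These counts depended on single libraries: on control feed the number lower was 10 without ileum control 1, 1 without ileum control 3, 0 without ileum control 5, 1 without cecum control 4 and 5 without colon control 1. On arsenic feed it was 5 without ileum arsenic 13 or 14, 4 without cecum arsenic 11 or 13, 6 without cecum arsenic 14, 5 without cecum arsenic 15, and 4 with ileum arsenic 14 and 15 both left out. The number higher on arsenic feed was 1 without ileum arsenic 12, cecum arsenic 14 or cecum arsenic 15. Of the 11 T cell genes, 10 were lower in the cecum than in the ileum on each feed. On control and arsenic feed 4 and 2 of 7 fibroblast genes were lower. Of 9 smooth muscle genes 6 and 1 were lower and 0 and 2 higher. Of 12 intestinal stem cell genes 5 and 4 were lower and 2 and 1 higher. The mean log2 CPM of the stem cell genes was 4.46, 3.26 and 3.37 in control ileum, cecum and colon. Their differences between control cecum and control ileum ran from -11.0 to 1.62, with a median of -0.21, so single genes weigh on this mean. The part of these cell types in the result was not tested.

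Genes of other cell types moved with the colon difference. All 9 smooth muscle, 8 enteric neuron and glia and 7 fibroblast genes were higher in control colon than in control cecum. The summed smooth muscle level was 5630 to 8063 CPM in control colon and 2866 to 3880 CPM in control cecum, with no gene of the list at 0. Against control ileum 4 of 9 smooth muscle, 8 of 8 neuron and glia and 4 of 7 fibroblast genes were higher in the colon. Of the 11 T cell genes, 9 were lower in the colon than in the ileum on control and 10 on arsenic feed, and of the 12 B cell genes 0 and 5. The summed T cell level was 104 to 166 CPM in ileum and 24.4 to 52.5 CPM in colon on control feed, and 68.8 to 206 and 21.9 to 40.9 CPM on arsenic feed. The summed B cell level was 21.8 to 219 CPM in ileum and 21.4 to 132 CPM in colon on control feed, and 19.6 to 504 and 36.3 to 49.2 CPM on arsenic feed, with no gene of either list at 0. Against the cecum 2 T cell genes were higher in the colon on control feed and 1 was lower on arsenic feed. Of the 12 intestinal stem cell genes, 4 were higher and 2 lower in control colon than in control cecum, and 5 and 1 on arsenic feed. Against the ileum, 2 stem cell genes were higher and 5 lower on control feed, and 4 and 5 on arsenic feed. Of the 14 absorptive epithelium genes, 9 were lower and 1 higher in control colon than in control cecum, and 2 and 2 on arsenic feed. Against the ileum, 5 epithelium genes were lower and 6 higher on control feed, and 4 and 6 on arsenic feed. Set against the epithelium genes, the mean log2 level of the 39 genes was -5.67 ± 0.37, -5.70 ± 0.21 and -5.94 ± 0.11 in control ileum, cecum and colon, and -5.47 ± 0.67, -5.48 ± 0.14 and -6.09 ± 0.10 on arsenic feed. The colon had the lowest mean on this scale too, with a gap of fewer log2 units, and libraries overlapped. The epithelium genes did not move together between colon and ileum. Their differences ran from -5.45 to 2.13 on control feed (median 0.04) and from -5.50 to 2.78 on arsenic feed (median -0.07). Single genes of that list therefore weigh on this scale. Ileum control 1 (-6.21) and ileum arsenic 15 (-6.34) lay below every colon library of their feed. Cecum control 4 (-5.99) lay within the control colon range of -6.09 to -5.82. Every arsenic cecum library lay above every arsenic colon library. The part of these cell types in the result was not tested.

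A wider list of 139 other genes of replication, cell cycle control and mitosis, of which 137 were tested, was also lower in the colon. Against the cecum, 81 were lower and 5 higher on control feed and 69 and 6 on arsenic feed. Over all genes, 25.3% were lower and 21.9% higher on control feed, and 16.2% and 22.5% on arsenic feed. Against the ileum, 83 and 89 genes of the wider list were lower and 13 and 14 higher. Over all genes, 24.5% and 26.3% were lower and 27.7% and 32.8% higher. Among the wider-list genes lower in control colon than in control ileum were Mcm10 and Rpa2, which act in DNA replication, at -1.73 (SE 0.13) and -1.09 (SE 0.15). Against the cecum the genes with the smallest p were Pold3 (-1.04, SE 0.08), E2f3 (-0.61, SE 0.09) and Mcm10 (-0.89, SE 0.14). CDK inhibitors, which brake the cycle, were among the genes that went the other way. Cdkn1c was higher in the colon in all 4 comparisons, by 0.74 (SE 0.20) and 0.95 (SE 0.22) against the cecum and 0.82 (SE 0.20) and 1.28 (SE 0.22) against the ileum. Cdkn1b was also higher in all 4, by 0.23 to 0.60. Cdkn1a was higher than in the ileum by 0.57 (SE 0.13) and 0.80 (SE 0.18), but lower than in control cecum by a log2 difference of -0.67 (SE 0.13). Cdkn2b was higher than in the cecum by 0.65 (SE 0.12) and 1.29 (SE 0.08) and lower than in the ileum by -0.38 (SE 0.12) and -0.53 (SE 0.08). Cdkn2c was lower than in the ileum by -0.56 (SE 0.19) and -0.72 (SE 0.19), Cdkn2d was higher than in control ileum by 0.37 (SE 0.15), and Cdkn2a was too low to be tested.

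Few of the 39 genes differed between arsenic and control feed. By edgeR, 0 passed in the ileum, where 7.30% of all genes were called, and 0 in the colon, where 0.649% were. These counts were also 0 with ileum arsenic 14 and 15, or colon control 1, left out. The number of all genes called depended on the setting too. In the ileum it was 1190, and ran from 0 with ileum controls 1 and 2 left out to 2889 with 27 libraries in 1 model. In the colon it was 107, and ran from 6 without colon arsenic 13 to 665 by DESeq2. A count of 0 under a setting that calls few genes says little about the 39. In the cecum 1 passed, Nusap1, where 11.3% of all genes were called higher and 25.2% in either direction. At an unadjusted p under 0.05 there were 5 genes in the ileum (Cdc20, Plk1, Ccne1, Aurkb and Cdc6), 2 in the cecum (Nusap1 and Cenpf) and 2 in the colon (Bub1b and Top2a), or 12.8%, 5.13% and 5.13% of the list against 25.0%, 38.4% and 14.6% of all genes. DESeq2 called 1, 1 and 0. The median log2 differences were 0.07, 0.04 and -0.07, and their median SE was 0.25 (ileum), 0.12 (cecum) and 0.14 (colon). In no region did the diet groups of any of the 39 genes separate without overlap, against 13.4%, 22.2% and 7.83% of all genes. At these errors, differences of the size of the SE were not detectable.

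**Figure D4:**
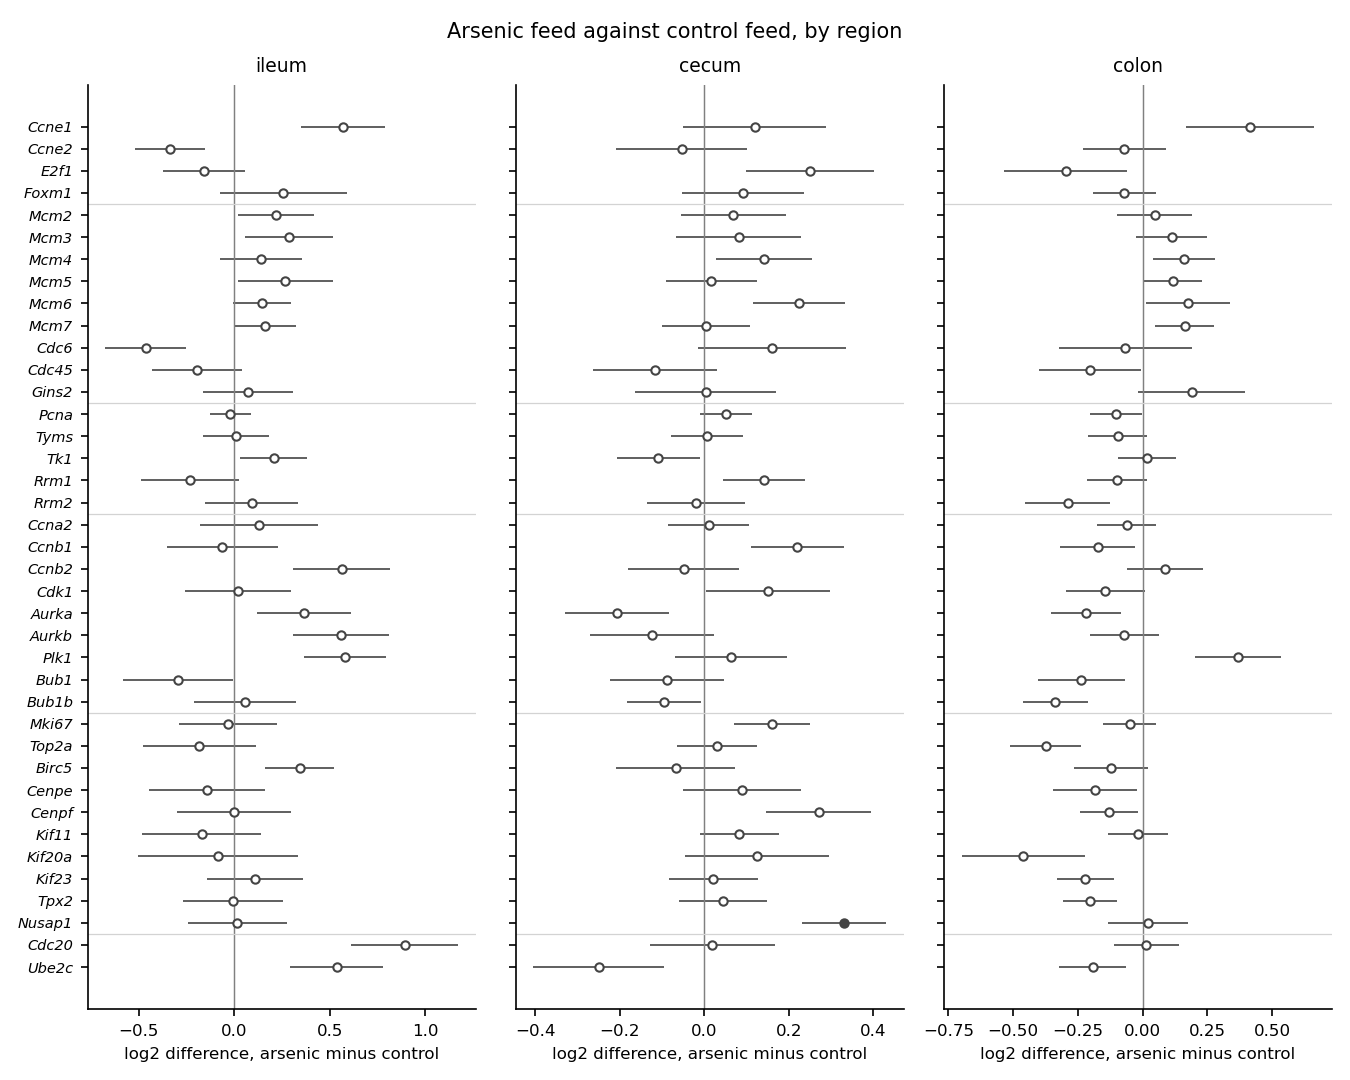
Log2 difference of arsenic minus control feed (x axis) with SE for each gene (y axis, by role) in the 3 regions; the filled point, Nusap1 in the cecum at 0.33, is the 1 that passed an adjusted p of 0.05 in edgeR. Errors are widest in the ileum, where Cdc20 is at 0.89.

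Nusap1 was at 14.9, 14.8, 15.5 and 17.6 CPM in cecum controls 1, 2, 4 and 5 and at 16.4, 20.7, 17.1, 20.8 and 21.3 CPM in cecum arsenic 11 to 15. Of the 5 arsenic libraries, 3 were above every control, and the groups overlapped. The difference was 0.33 (SE 0.10, adjusted p = 0.0256, edgeR). The call was lost when any of cecum controls 1, 2 or 4 or cecum arsenic 12 or 14 was left out, and was joined by Ccnb1, a mitotic cyclin, at 0.36 when cecum control 5 was left out. In the same cecum comparison 7 of 11 T cell, 4 of 9 smooth muscle and 3 of 7 fibroblast genes were higher and 6 of 14 epithelium genes lower. All 12 B cell genes had a positive difference, with a median of 2.91 and 1 called, and their summed level was 10.6 to 63.3 CPM in control and 20.0 to 254 CPM in arsenic cecum. For each of these cell types, the part in the result was not tested.

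Cdc20 had the largest diet difference of the 39 genes in the ileum. It was at 12.9, 21.1, 21.1 and 26.0 CPM in ileum controls 1, 2, 3 and 5 and at 33.2, 23.1, 51.8, 53.4 and 31.0 CPM in ileum arsenic 11 to 15. Only ileum arsenic 12 fell within the control range. The difference was 0.89 (SE 0.28, adjusted p = 0.0835, edgeR), and with ileum arsenic 14 and 15 left out it was 0.83 (SE 0.30, adjusted p = 0.154). DESeq2 called it at 0.90 (adjusted p = 0.0172), and so did the edgeR model with all 27 libraries, which also called Plk1, Ccnb2, Aurkb and Ube2c. Ube2c, its partner in the anaphase-promoting complex, was at 22.1, 32.0, 36.0 and 36.3 CPM in control ileum and at 39.1, 31.2, 48.6, 73.7 and 42.2 CPM in arsenic ileum, a difference of 0.53 (SE 0.24, adjusted p = 0.204). In the cecum and colon the Cdc20 difference was 0.02 (SE 0.15) and 0.01 (SE 0.12). The interaction test of whether the arsenic effect differed between regions called none of the 39 genes (4 at an unadjusted p under 0.05, 1 by DESeq2), where 7.62% of all genes were called. Cdc20 was nearest at an adjusted p of 0.0599, followed by Ube2c at 0.0806. Like 9 others of the 39 genes, Cdc20 and Ube2c share exon bases with a gene on the other strand (Elovl1 and Tnnc2), and reads from there cannot be told apart.

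Averaged over the 3 regions, 1 gene passed, Ccne1, where 8.08% of all genes were called higher (limma voom with libraries of the same number treated as correlated). Ccne1 was at 4.12 to 6.01 CPM in control and 5.06 to 10.2 CPM in arsenic ileum, at 4.09 to 6.85 and 5.34 to 7.46 CPM in the cecum, and at 2.05 to 4.34 and 3.10 to 5.31 CPM in the colon. The groups overlapped in every region. The averaged difference was 0.38 (SE 0.13, adjusted p = 0.0405, limma), made of 0.57 (SE 0.22), 0.12 (SE 0.17) and 0.41 (SE 0.25) in the separate regions. The call was lost when any 1 of 14 of the 27 libraries was left out: ileum controls 1, 3 and 5, ileum arsenic 13 and 14, cecum controls 2, 4 and 5, cecum arsenic 11 and 13, colon controls 3 and 4, and colon arsenic 12 and 15. With ileum arsenic 14 and 15 and colon control 1 left out together, the difference was 0.41 (adjusted p = 0.0162, limma).

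Of the 137 genes of the wider list, 3.65% were called for the diet in the ileum, 11.7% in the cecum and 11.7% averaged over regions. Each share was below that of all genes in the same fit (7.30%, 25.2% and 16.8%). In the ileum 4 of the 137 genes rose (Cdt1, Fzr1, Rfc5 and Pold2) and 1 fell (Orc4). Cdt1, which loads the MCM ring, rose by 0.76 (SE 0.17, adjusted p = 0.0264, edgeR), and Orc4, a subunit of the origin recognition complex, fell by 0.42 (SE 0.08, adjusted p = 0.0175) on the log2 scale. The 4 higher calls were all lost without any 1 of ileum controls 1, 2 and 3 or ileum arsenic 13 and 14, the lower call without any 1 of ileum controls 1, 2 and 3, and all 5 with ileum arsenic 14 and 15 both left out. DESeq2 called 10 higher and 1 lower in the ileum, and the edgeR model with all 27 libraries 16 and 3. In the cecum 6 rose, with Ncapg2 (0.43, SE 0.10), Rfc3 (0.43, SE 0.11) and Orc6 (0.45, SE 0.13) having the smallest p, and 10 fell, among them Pold3 (-0.43, SE 0.07), Ccnd3 (-0.39, SE 0.08) and the CDK inhibitor Cdkn2b (-0.28, SE 0.07). With upper-quartile scaling the cecum split was 9 and 5, and with all 27 libraries in 1 model 2 and 5. The number higher was 3 without cecum control 4, cecum arsenic 11 or cecum arsenic 12, and the number lower was 5 without cecum control 2 and 6 without cecum control 1, cecum control 5 or cecum arsenic 11. In the colon none was called by edgeR, and DESeq2 called 3. Averaged over regions 8 were higher, led by Rfc3 (0.37, SE 0.07), Orc6 (0.33, SE 0.07) and Cdt1 (0.42, SE 0.10), and 8 lower, led by Orc4 (-0.24, SE 0.05), Cdc7 (-0.65, SE 0.14) and the cyclin Ccnd2 (-0.33, SE 0.07), in limma. With upper-quartile scaling that split was 9 and 5. Beyond Cdkn2b in the cecum, no CDK inhibitor passed in a region or in the average, with differences between -0.24 (Cdkn1b, colon) and 0.47 (Cdkn2d, ileum).

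Within groups, single libraries were the lowest or highest for many of the 39 genes. Ileum control 1 was the lowest of the 4 control ileum libraries for 39 of 39 genes, against 29.1% of all genes. In arsenic ileum, library 12 was the lowest for 27 of the 39 (19.6% of all genes), library 15 for 11 (24.3%, a similar share), and library 14 was the highest for 23 (18.3%). Cecum control 4 was the lowest for 28 (25.5% of all genes) and cecum control 5 the highest for 27 (19.6%). In the colon, control 5 was the highest for 25 (15.7% of all genes), arsenic 11 the lowest for 25 (30.1%) and arsenic 13 the highest for 26 (25.2%). Ileum controls 1 and 2 also had the highest smooth muscle level of the ileum libraries, with a mean log2 CPM of 8.41 and 8.18 against 7.46 to 7.69 in the others, and the part of this in the result was not tested. Without ileum control 1 the median diet difference of the 39 genes in the ileum was -0.04 in place of 0.07.

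**Figure D5:**
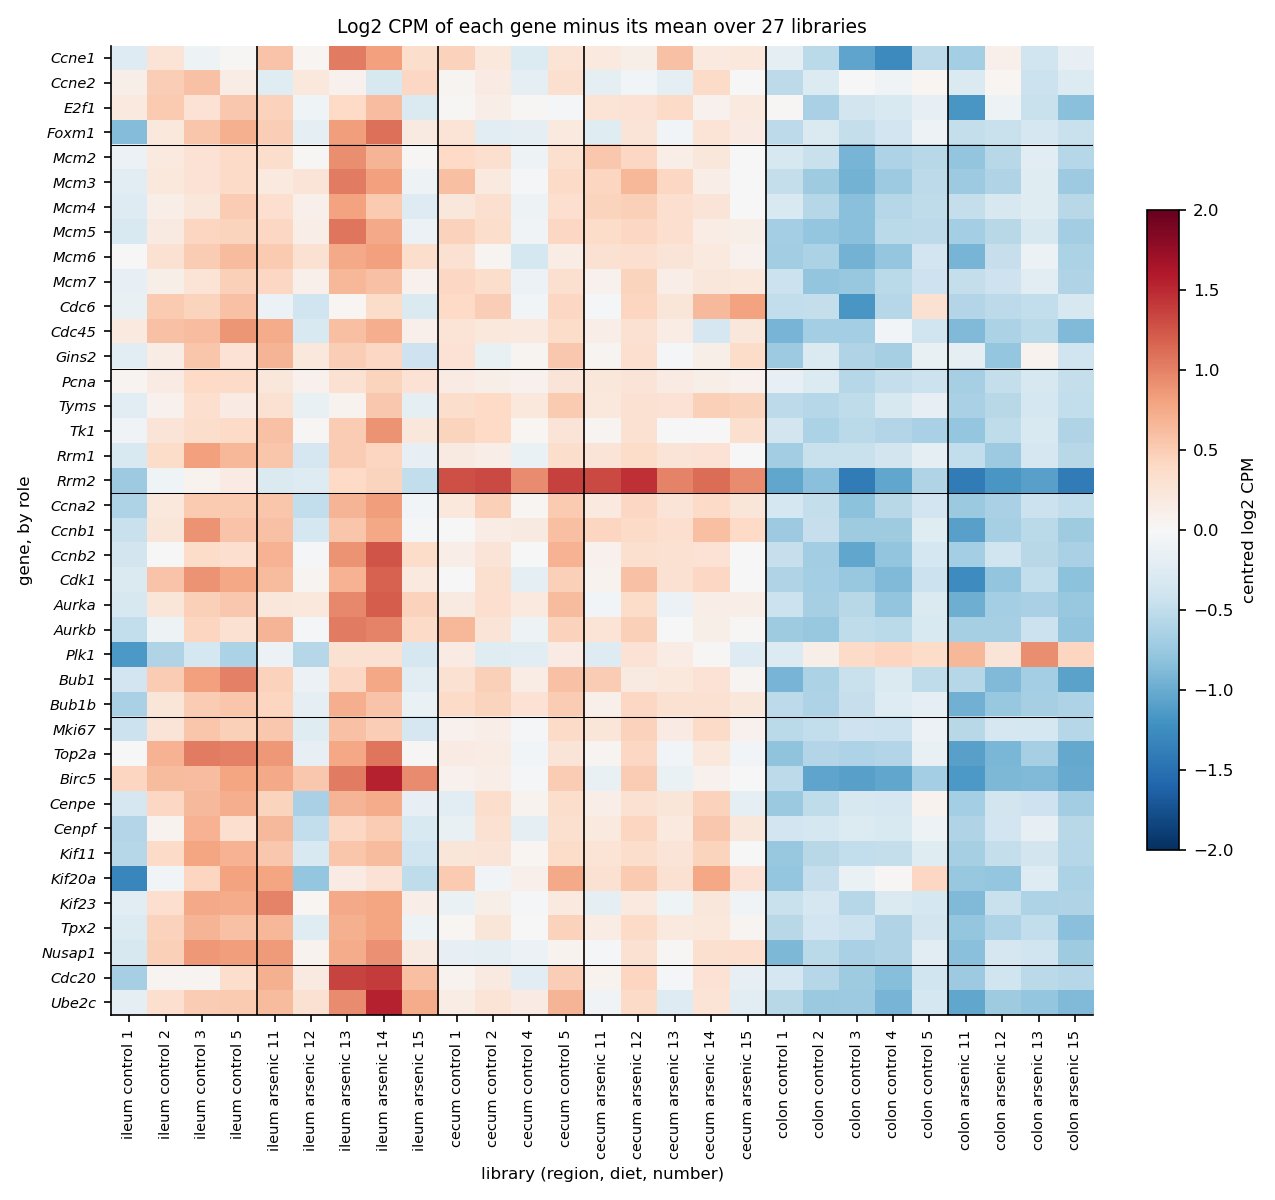
Each cell is the log2 CPM of a gene (row, by role) minus its mean over the 27 libraries (column, by region, diet and number), with red above and blue below the mean. The colon columns are blue in nearly every row, Plk1 excepted, ileum control 1 is the lowest control ileum column in all 39 rows, and Rrm2 is reddest in the cecum.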

How the data were processed

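Polyadenylated RNA of 27 mouse libraries was sequenced by the authors as 150 bp paired reads from 2 ug of RNA (per the labels' protocols). The deposited table holds whole-number read counts per Ensembl gene. HISAT2 2.1.0, HTSeq 0.6.0, DESeq2 1.6.3 and SAMtools are listed in the submitters' processing notes, and the genome build, annotation and strand setting are not given in the sources used here. Of 52550 gene identifiers 52403 matched a symbol.

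Counts were scaled by TMM and filtered with filterByExpr (minimum count 10, minimum total 15). Diet was tested within each region, and regions within each feed, with edgeR 4.0.16 (R 4.3.3) quasi-likelihood tests, and the interaction over all 27 libraries likewise. The average over regions used limma 3.58.1 voom with a shared correlation for equal library numbers. P-values were adjusted over all genes tested by Benjamini-Hochberg, with a threshold of 0.05. Mean log2 CPM used a prior count of 2. Positions and exon lengths came from GENCODE on GRCm38. The steps were tested on simulated counts, and no pair of libraries of the same region and feed agreed within sampling noise. Pairs across groups were not compared in this way.

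All 39 genes are named; of the wider list, the 3 called genes with the smallest p in each direction and the CDK inhibitors, and genes of other cell types only as lists or where a marker was absent. One result of the wider list is not reported here. Other names were chosen after their values were seen. The 39 genes, the wider list and the cell type lists were chosen with earlier results of these data known. Alternatives were RLE and upper-quartile scaling, no filter, a 1 CPM filter, DESeq2 1.42.0, 27 libraries in 1 model, a replicate block or none, and each library left out. Leaving out several libraries together was chosen after seeing the data.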

Additional observations from a re-analysis of the deposited data

Results flagged for a closer look

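Colon control 5 stood apart from the other control colon libraries. Its mean log2 CPM over the 39 genes was 3.79, against 3.45 to 3.54 in the other 4. Mki67 was at 87.9 CPM there, against 65.4 to 71.5 CPM, and Top2a at 64.4 CPM, against 41.1 to 47.7 CPM. Ccne1 was at 7.46 CPM in cecum arsenic 13 and at 5.34 to 5.74 CPM in the other 4 arsenic cecum libraries. Such gaps were found in 4 of 240 groups of values examined, and chance gives about 1 in 20.

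Among the wider list of cell cycle genes, 6 had an arsenic effect that differed between the regions by the edgeR interaction test, 4.38% of the 137 tested against 7.62% of all genes. Cdkn2b, a CDK inhibitor (adjusted p = 0.00441), differed by 0.44 (SE 0.15) in the ileum, -0.28 (SE 0.07) in the cecum and 0.25 (SE 0.08) in the colon. Fzr1, an activator of the anaphase-promoting complex (adjusted p = 0.00674), differed by 0.46 (SE 0.11), -0.28 (SE 0.08) and -0.03 (SE 0.12). The others were E2f4 (0.0127), Cdkn2d (0.0263), Anapc2 (0.0304) and Ube2s (0.0475), as edgeR adjusted p-values, each with a positive estimate in the ileum and negative estimates in the cecum and colon. The number of such genes was 2 without ileum control 2, 11 without ileum arsenic 15, 2 with upper-quartile scaling and 10 by DESeq2.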

How the results depend on the processing

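The number of genes called lower in the colon stayed within 1.5 times of the reported one under every alternative run. Leaving out 1 library at a time, the number of genes called lower was 26 to 33 (control) and 29 to 37 (arsenic feed) against the cecum, and 33 to 37 on either feed against the ileum, and under the other settings 27 to 33, 31 to 34, 35 to 37 and 33 to 36. The median against the cecum on arsenic feed ranged from -0.86 to -0.66 without 1 library. Upper-quartile scaling moved the median of all genes from -0.03 to -0.19 for cecum against ileum on control feed and from -0.05 to 0.09 for colon against cecum; the median of the 39 genes moved with it, to -0.23 and -0.62.

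The few diet calls did not hold under all alternatives. In the ileum, 1 gene was called higher by DESeq2 and 5 with 27 libraries in 1 model, and 0 when any 1 library was left out. The number of all genes called there ran from 0 to 2889 over the alternatives. In the cecum, 0 were called with 27 libraries in 1 model and 0 to 2 without 1 library. Averaged over regions, 0 were called with no filter, 2 without the replicate block in either limma voom or edgeR, and 0 to 3 without 1 library. For the interaction, DESeq2 called 1 and leaving out 1 library gave 0 to 3 (3 without ileum arsenic 12, 1 without ileum control 5, ileum arsenic 11 or cecum control 4). The median diet difference changed sign without ileum control 1 in the ileum (-0.04) and without cecum control 4 in the cecum (-0.02). Under the settings other than leaving out 1 library it ran from -0.15 to 0.11 in the ileum. Averaged over regions the median was 0.02. It was -0.05 without ileum control 1, and -0.01 to 0.05 under the other settings.

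For cecum against ileum on control feed, 5 genes were called lower with RLE scaling, a 1 CPM filter or DESeq2, 9 with upper-quartile scaling, 13 with ileum controls 1 and 2 left out (1 higher), and 0 to 10 without 1 library (2 to 3 higher). On arsenic feed 6 were lower with no filter, 4 with ileum arsenic 14 and 15 left out and 4 to 13 without 1 library (1 to 3 higher). Plk1 higher in colon than cecum gave 0 to 1 calls on either feed. The cause was not tested.

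Libraries of the same number correlated by -0.11 to 0.20 on control and -0.02 to 0.25 on arsenic feed, with 4 of 11 and 9 of 13 pairs over 0.1. The medians were 0.07 and 0.13, against -0.02 and -0.03 for pairs of different numbers. Equal numbers were thus weakly more alike, so shared mice remain possible, and the labels do not say. The main comparisons of regions and the interaction had no block. The average over regions kept a shared correlation for equal numbers (0.09) in case they mark the same mouse. Without it Ccne1 differed by 0.37 (adjusted p = 0.0276, limma), and the wider list gave 9 higher and 10 lower. With a replicate block, 33 and 31 genes were lower in colon than cecum, 35 and 33 lower than in ileum, 3 and 8 lower in cecum than ileum, and 0 were called in the interaction. At a median SE of 0.25, the ileum limits what could be seen of the diet.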
